A study of Danio rerio with 8 samples.

Results

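Ferritin and iron transport genes were examined in heart cells of juvenile zebrafish, sorted by a reporter of the epicardial gene tcf21. The epicardium is the outer layer of the heart. The set held 10 gene symbols: the ferritin genes fth1a, fthl27, fthl28, fthl29, fthl30 and fthl31, the transferrin receptor genes tfr1a and tfr1b, the iron exporter gene slc40a1 and the iron importer gene slc11a2. They were found by symbol among 37685 symbols, after rows of a symbol that carried an added number (called copies here) had been summed. Only tfr1b had a second copy, so the 10 symbols came from 11 of 53709 rows. The members were selected on results of this same comparison, among them the lower fthl31 counts in mutants, so their differences between genotypes are given as a description.

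All 8 libraries were bulk RNA-seq of cells sorted by the reporter tcf21:nEGFP, which the sample titles write as Tcf21:nGFP, from heart ventricles of fish aged 70 days. In 4 libraries the fish carried the cxcr4a mutation, written cxcr4aum20 in the sample titles and described in the labels by loss of coronary vessels, and 4 were wild type (WT) with the same reporter. Coronary loss and other effects of the mutation cannot be told apart in this design. Whether each library stands for its own fish or for a pool is not stated, and the p-values therefore reflect library-to-library spread that could in part be technical.

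Cells store iron inside ferritin, a hollow protein shell. Its heavy-type subunits oxidise iron so that it can be laid down in the core. Iron bound to transferrin enters cells through transferrin receptors, leaves the endosome through the transporter encoded by slc11a2, and leaves the cell through ferroportin, encoded by slc40a1. Iron regulatory proteins set ferritin synthesis from its mRNA, so ferritin mRNA and protein levels need not move together. They also set the stability of transferrin receptor mRNA. Protein levels of the members were not measured here.

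Total counts ranged from 18891079 to 25513003 per mutant library and from 19584695 to 28471786 per wild-type library. The mutated gene cxcr4a had 86, 229, 171 and 447 counts in mutants 1 to 4 and 219, 12, 118 and 27 counts in wild types 1 to 4. Reads from a transcript that carries the mutation still count, and the genotype labels are not checked by these values. The epicardial transcription factor genes tcf21 and tbx18 were at 88.5 and 749 CPM (counts scaled to a common library size) in mutants and at 109.5 and 827 CPM in wild type (means, n = 4). Among the other epicardial markers, hapln1a and krt8 had the highest CPM, at 2345 and 1515 CPM in mutants and at 1465 and 1738 CPM in wild type (means, n = 4). In contrast, upk3b had 0 counts in every library and aldh1a2 had 33 counts in all 8. None of 11 summed cell type marker lists separated the groups. The summed cardiomyocyte markers were at 434, 691, 2806 and 1612 CPM in mutants 1 to 4 and at 716, 509, 369.5 and 414 CPM in wild types 1 to 4. Of the 11 cardiomyocyte markers tested with edgeR, 6 had an unadjusted p under 0.05, all higher in mutants, against 8.64% of all tested symbols in either direction, and none was called. Such a p, with the gene higher in mutants, was also found for 3 of 11 mural, 2 of 7 fibroblast, 1 of 6 thrombocyte and 1 of 4 neutrophil markers tested. Among 13 macrophage markers tested, 1 had such a p and was lower in mutants. The other lists had none, and no marker was called. The part of RNA from these cell types in the differences below was not tested. Over 16 library measures the exact permutation p, 2-sided, ran from 0.171 to 1 (lowest adjusted p = 0.884; the smallest p that 8 libraries allow is 0.0286). In wild type 1, mitochondrial rRNA took 21.4% of counts, against 3.33% to 9.96% in the other 7 libraries.

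Levels below are CPM scaled with TMM factors, which adjust for differences in library composition, and are not corrected for gene length. They are therefore compared between libraries and not between genes. Of the 10 members, 9 passed the filter on low counts and were tested with edgeR together with all other symbols. The threshold for a call was 0.05 after Benjamini-Hochberg adjustment. One member, fthl31, was called, where 0.0481% of 16631 tested symbols were called (8 in all, 6 lower and 2 higher in mutants). The median log2 fold change of the 9 tested members was -0.27, against 0.01 over all tested symbols.

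fthl31, a ferritin heavy-chain-like gene, had the largest fitted difference of the 9 tested members. It was at 4.00, 5.51, 5.94 and 3.46 CPM in mutants 1 to 4. In wild types 1 to 4 it was at 23.1, 20.2, 25.9 and 31.4 CPM. Every mutant library was thus below every wild-type library, and within each genotype the libraries lay close together. The highest library was 1.55 times the lowest in wild type and 1.72 times in mutants. The mean fell 5.32-fold, from 25.1 ± 4.78 to 4.73 ± 1.19 CPM (SD, n = 4), a log2 fold change of -2.41 ± 0.30 (SE; edgeR adjusted p = 0.0334). By unadjusted p it ranked 7 of 16631.

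The size of the fthl31 difference varied little with the processing, while its call did not hold throughout. Leaving out any 1 of the 8 libraries gave log2 fold changes between -2.54 and -2.28 and ended the edgeR call each time (adjusted p = 0.0589 to 0.172). The call was also lost with limma voom (adjusted p = 0.0603), with scaling by library size only (edgeR adjusted p = 0.0733) and with the replicate number as a block (edgeR adjusted p = 0.326). Whether these numbers pair the libraries cannot be told from these data. With DESeq2, which called 2.47% of the 18966 symbols it gave an adjusted p, that of fthl31 was 1.6e-12.

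**Figure D1:**
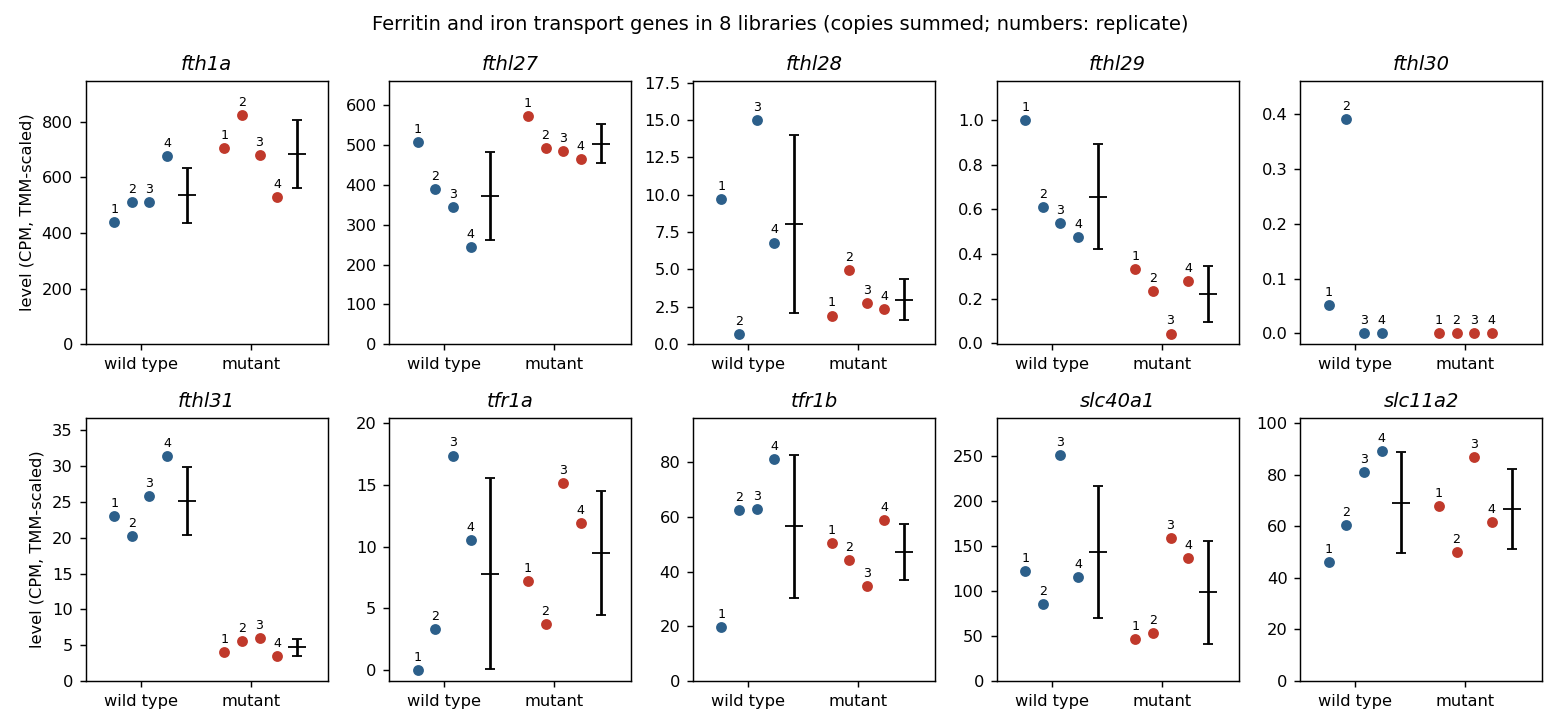
Level of each of the 10 members in CPM (TMM-scaled, copies summed) in the 4 wild-type (blue) and 4 cxcr4a mutant (red) libraries, with the replicate number above each point and bars at mean ± SD (none for fthl30, which is at 0 in 6 libraries). Mutant libraries lie at 3.46 to 5.94 CPM for fthl31 and wild-type libraries at 20.2 to 31.4 CPM, while the groups overlap for the transporter and receptor genes.

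A ratio within each library does not depend on scaling. Per 1000 reads of fthl27, a ferritin gene of the same chromosomal cluster, fthl31 had 6.97, 11.2, 12.2 and 7.45 reads in mutants 1 to 4. Wild types 1 to 4 had 45.4, 51.8, 75.0 and 128.4. The lowest wild-type ratio was above the highest mutant ratio. The ratio rests on the same fthl31 counts and also carries the fthl27 difference, which ran the other way (log2 fold change 0.44, not called). Wild type 4, with the highest ratio, had the fewest fthl27 reads, 5149. Reads may also be shared between these neighbours. Among reads of the 6 ferritin genes, fthl31 took 0.312% in mutant 1 (95% Wilson interval 0.252% to 0.386%) and 0.507% in mutant 3 (0.429% to 0.599%), the lowest and highest mutant shares. In wild type the lowest share was 2.19% in wild type 2 (2.00% to 2.39%) and the highest 3.28% in wild type 4 (3.04% to 3.53%). These intervals, and the floors below, take in counting error alone, as the reads were amplified and carry no molecular identifiers.

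fth1a, which encodes a heavy-type ferritin subunit, was at 704, 825, 678 and 530 CPM in mutants 1 to 4. In wild types 1 to 4 it was at 441, 511, 513 and 675 CPM. The groups overlapped, because mutant 4 was below wild type 4. The difference, 0.35 ± 0.23 on the log2 scale, was within the spread of libraries (SE, n = 4 per group; edgeR adjusted p = 0.722).

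For fthl27 the 4 mutant libraries were at 574, 492, 485 and 464 CPM. The wild-type libraries were at 508, 391, 345 and 245 CPM. Wild type 1 lay among the mutants and the other 3 wild types lay below all 4. A log2 difference of 0.44 ± 0.25 did not pass (SE, n = 4 per group; edgeR adjusted p = 0.677), and it was 0.28 without wild type 4 and 0.62 without wild type 1.

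Together the 6 ferritin genes of the set summed to 1284, 1328, 1172 and 999.5 CPM in mutants and to 983, 924, 899 and 959 CPM in wild type. The sum was thus higher in each mutant library than in any wild-type library, though mutant 4 (999.5 CPM) was close to wild type 1 (983 CPM). Groups did not overlap for 6.3% of all tested symbols. fth1a and fthl27, the genes that carried the sum, each had overlapping groups, and neither was called. fth1a took 56.9% ± 4.01 of ferritin reads in mutants and 56.9% ± 10.5 in wild type, and fthl27 took 42.4% ± 4.12 and 39.5% ± 10.9 (SD, n = 4). The lower fthl31 reads were a small part of all ferritin reads, 0.395% ± 0.0862 in mutants and 2.67% ± 0.499 in wild type.

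The remaining ferritin genes were thinly counted. fthl28 was at 1.91, 4.93, 2.73 and 2.34 CPM in mutants. In wild type it was at 9.74, 0.697, 15.02 and 6.80 CPM, so that wild type 2 was the lowest library of all and the other 3 wild types were above every mutant. At -1.44 ± 0.76 the log2 fold change did not pass (SE; edgeR adjusted p = 0.647), and the highest wild-type library was 21.6 times the lowest. It was -0.95 without wild type 3 and -1.83 without wild type 2.

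fthl29 had 7, 4, 1 and 8 counts in mutants 1 to 4 and 19, 14, 18 and 10 in wild types 1 to 4. The groups did not overlap in CPM, as they did not for 6.3% of all tested symbols. fthl29 passed the low-count filter through the wild types alone, as every mutant was under the cutoff. It could thus be tested only with its groups apart, and the lack of overlap is given as a description. With 20 counts over the mutant libraries and 61 over the wild-type ones, the ratio of wild type to mutant was 2.86 (95% counting interval 1.7 to 5.0), and the log2 fold change of -1.54 ± 0.82 (SE, n = 4 per group) was not called (edgeR adjusted p = 0.650).

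fthl30 had 0 counts in all 4 mutants and 1, 9, 0 and 0 counts in wild types 1 to 4, and did not pass the low-count filter. Over the groups it was at least 3.13-fold lower in mutants, against a floor of 3 counts over the mutant group. The 10 wild-type counts were taken as exact, so their own counting error is left out of that bound. That bound rests on wild type 2, which held 9 of the 10 counts, and no bound can be given without it.

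In the RefSeq gene order of the GRCz12tu assembly, which is not the build of the counts, the genes fthl27, fthl28, fthl30, fthl31 and fthl29 follow each other on chromosome 3 with no other protein-coding gene between them, and fth1a lies on chromosome 7. Reads of such related neighbours may be shared between them, and how reads that map to several places were counted is not stated. Summing the 4 thinly counted genes fthl28 to fthl31 gave 6.24, 10.7, 8.72 and 6.07 CPM in mutants and 33.9, 21.9, 41.4 and 38.7 CPM in wild type. fthl31 itself made up most of that sum in every library, from 5.51 of 10.7 CPM in mutant 2 to 20.2 of 21.9 CPM in wild type 2. The sum leaves out fthl27, the gene of the cluster with the most reads. The part of shared reads in the fthl31 difference was not tested.

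None of the tested genes on either side of the cluster was called. Of the 8 protein-coding genes taken on each side, 12 were tested with edgeR, and 1 had an unadjusted p under 0.05 and groups that did not overlap, where 8.64% and 6.3% of all tested symbols did. Next to the cluster, the aldehyde dehydrogenase gene aldh16a1 had a log2 fold change of -0.80 ± 0.42 and baxb, which encodes a member of the apoptosis regulator family of Bax, 0.28 ± 0.28 (SE, n = 4 per group; edgeR adjusted p = 0.648 and 0.838). That 1 gene was syt5a, a synaptotagmin gene named after its values were seen. With every mutant under the cutoff of the low-count filter, syt5a could be tested only with its groups apart. It had 3 counts summed over the mutants and 95 over the wild types, a ratio of 29.7 (95% counting interval 9.86 to 146.5), without passing over all symbols (edgeR adjusted p = 0.287).

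**Figure D2:**
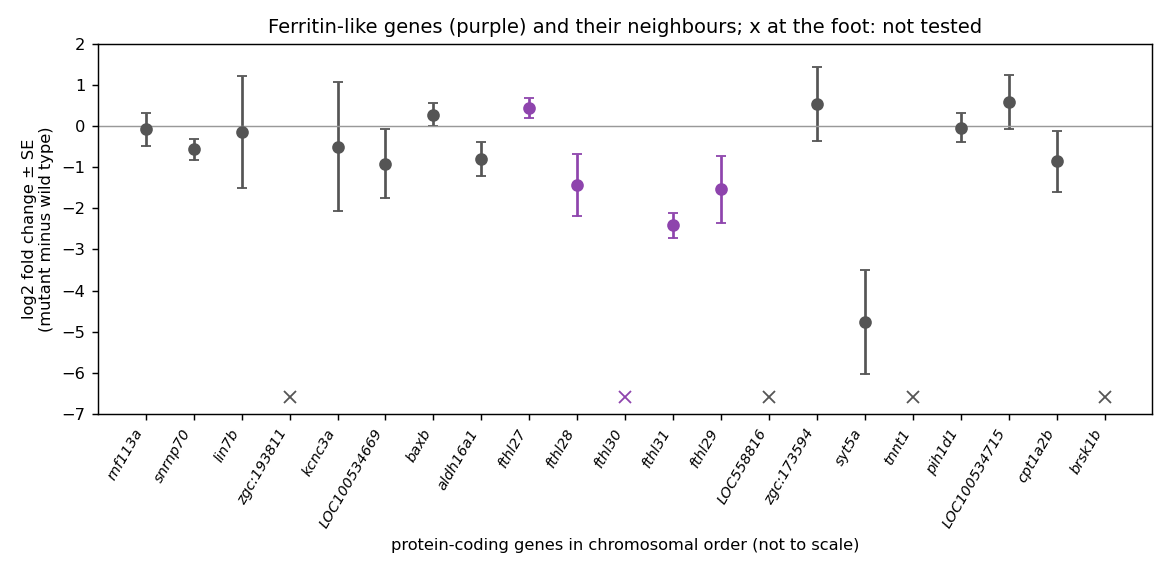
Log2 fold change ± SE (cxcr4a mutant minus wild type, edgeR, n = 4 per group) of the ferritin-like cluster (purple) and 8 protein-coding genes on each side, in RefSeq order and not to scale, with genes that were not tested marked at the foot. fthl31 is at -2.41 and fthl27 at 0.44 within the same cluster, and the low value outside it is syt5a, which rests on 3 mutant counts.

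tfr1a encodes the transferrin receptor that zebrafish need for haemoglobin formation in red cells. It was at 7.19, 3.71, 15.1 and 11.9 CPM in mutants 1 to 4. In wild type it had 0 counts in wild type 1, which allows up to 0.158 CPM (3 counts), and 3.36, 17.4 and 10.6 CPM in wild types 2 to 4. The genotypes overlapped fully, with a log2 fold change of 0.28 ± 1.1 (SE, n = 4 per group; edgeR adjusted p = 0.973). Its sign turned without mutant 3 (-0.04) or without wild type 1 (-0.14), and it was 1.03 without wild type 3 and 1.505 with limma voom.

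Erythrocyte markers, 14 genes summed, were at 3768, 5170, 10110 and 6849 CPM in mutants 1 to 4 and at 1460, 1039, 11600 and 16400 CPM in wild types 1 to 4. The pair of libraries with the least tfr1a, wild types 1 and 2, were also the pair with the least of these markers. Wild type 4 had the most of these markers, but its tfr1a, at 10.6 CPM, was below that of mutants 3 and 4 and wild type 3. Mutant 1 had less of these markers than mutant 2 but more tfr1a, at 7.19 against 3.71 CPM. Of the list, 11 genes were tested and none was called. The genes of the list with the highest CPM, hbba1 and hbaa1, were at 1709 and 1447 CPM in mutants and at 2143 and 1597 CPM in wild type (means, n = 4). gata1a, an erythroid transcription factor gene, was at 0 in every library, and alas2, the erythroid enzyme of haem synthesis, had 25 counts in all. slc4a1a, the red cell anion exchanger gene, ranged from 20.1 to 555 CPM in wild type and from 128 to 583 CPM in mutants. The part of red cell RNA in the tfr1a levels was not tested. In such bulk samples fewer cells of a type and less RNA per cell cannot be told apart.

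tfr1b, the second transferrin receptor gene, was at 50.3, 44.4, 34.7 and 58.9 CPM in mutants and at 19.7, 62.7, 63.0 and 81.4 CPM in wild type with its copies summed. Wild type 1 was again the lowest, and the mutants lay between it and the other 3 wild types, of which the lowest was just above the highest mutant. The summed gene was at -0.27 ± 0.39 on the log2 scale (SE, n = 4 per group; edgeR adjusted p = 0.900). It was -0.56 without wild type 1 and -0.04 without wild type 4.

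The copies of tfr1b did not keep 1 ratio across libraries. tfr1b_1 took 65.3%, 75.9%, 74.3% and 67.7% of the summed counts in mutants 1 to 4. In wild types 1 to 3 it took 83.7%, 85.7% and 59.7%, but in wild type 4 only 10.4% of 1713 counts (95% Wilson interval 9.03% to 11.9%). In the other 7 libraries these intervals together ran from 57.6% to 87.4%. Tested as deposited, the plain row had a log2 fold change of -0.99 ± 0.78 and tfr1b_1 of 0.18 ± 0.49 (SE, n = 4 per group; edgeR adjusted p = 0.717 and 0.942, with 0.35% of 18002 rows called). No source used here says how the copies differ in the counting annotation.

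**Figure D3:**
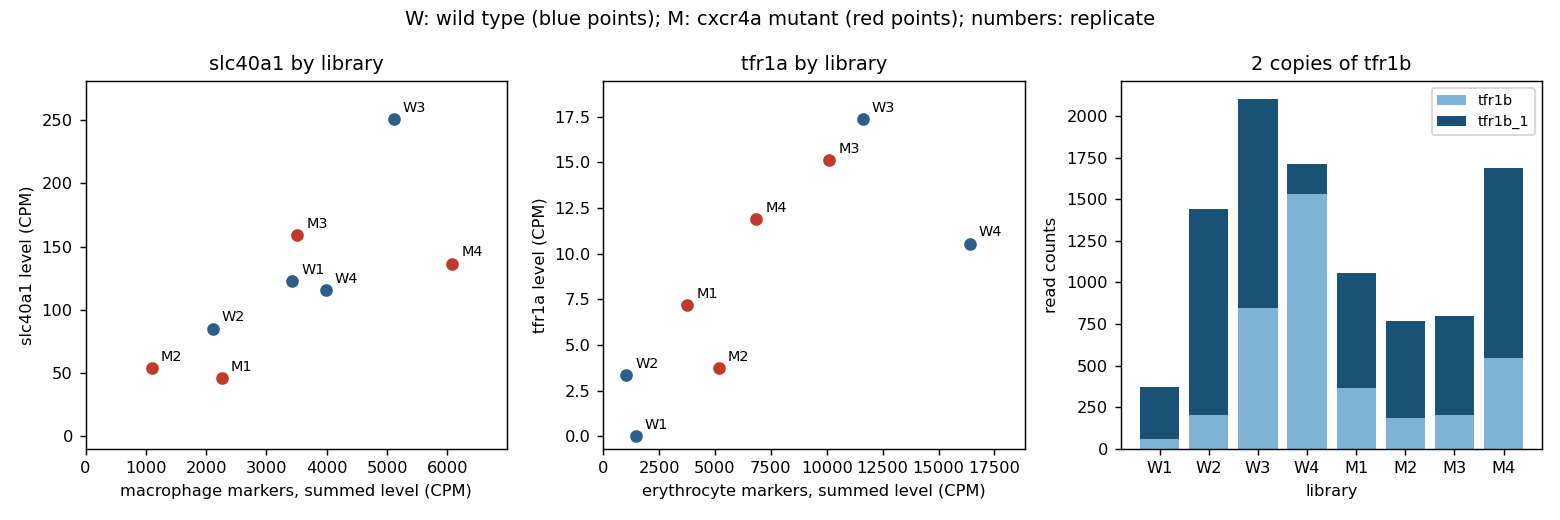
Left and middle panels plot the level of slc40a1 against summed macrophage markers and of tfr1a against summed erythrocyte markers (CPM on both axes), 1 point per library. The right panel stacks the read counts of both tfr1b copies by library, where wild type 4 stands apart with 10.4% of its counts on tfr1b_1.

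slc40a1 encodes ferroportin, the iron exporter, which is known to be abundant in macrophages that recycle iron. It was at 46.2, 53.6, 158.8 and 136.6 CPM in mutants 1 to 4. In wild types 1 to 4 it was at 122, 85.1, 251 and 116 CPM. Mutants 1 and 2 were the lowest of the 8 and mutants 3 and 4 lay within the wild-type range. The difference of -0.54 ± 0.47 on the log2 scale did not pass (SE, n = 4 per group; edgeR adjusted p = 0.805), and it was -0.86 without mutant 3 and -0.13 without wild type 3.

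Macrophage markers, 18 genes summed, were at 2256, 1099, 3509 and 6081 CPM in mutants 1 to 4 and at 3427, 2108, 5114 and 3980 CPM in wild types 1 to 4. The 3 libraries with the least slc40a1, which were mutants 1 and 2 and wild type 2, were also the 3 with the least of these markers. Mutant 4 had the most of these markers, but its slc40a1, at 136.6 CPM, was below that of mutant 3 and wild type 3. Of the members, only tfr1a and slc40a1 were set against a marker list, chosen for each. Of the list, 13 genes were tested and none was called. The genes of the list with the highest CPM, cd74a and cd74b, were at 1199 and 519 CPM in mutants and at 1170 and 534 CPM in wild type (means, n = 4). c1qa was at 0 in every library, c1qb had 1 count and mpeg1.1, often used to mark macrophages, had 2 counts in all 8. marco, a scavenger receptor gene, ranged from 19.7 to 223 CPM in mutants and from 54.5 to 522 CPM in wild type. The part of macrophage RNA in the slc40a1 levels was not tested.

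slc11a2, which encodes the importer of ferrous iron DMT1, was at 68.0, 49.9, 87.0 and 61.8 CPM in mutants. In wild type it was at 46.2, 60.5, 81.1 and 89.1 CPM. The ranges nearly coincided, with a log2 fold change of -0.05 ± 0.27 (SE, n = 4 per group; edgeR adjusted p = 0.981), whose sign turned under several alternatives.

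Spread within a genotype differed among the members. For each gene, the within-group SD of log2 CPM was set against that of all tested symbols whose mean level lay within 0.5 log2 units of its own. These log2 values carried an added count of 2 (prior count), which narrows the spread of thinly counted genes. fthl31 had an SD of 0.32, and 10.6% of such symbols had a smaller one. Its difference between genotypes was known at selection, so a small SD may follow from that choice and is given as a description. fthl29 had an SD of 0.62, which 4.07% of symbols at its low level undercut. It passed the low-count filter through the wild types alone, so this small SD may follow from the filter and is given as a description. Without the added count, its highest mutant library was 7.69 times its lowest in CPM. For fth1a and fthl27 these were 0.26 (17.5%) and 0.32 (36.1%), and for slc11a2 0.38 (51.2%). fthl28, tfr1b, slc40a1 and tfr1a were more spread, with SDs of 1.40 (82.2%), 0.69 (87.9%), 0.80 (91.9%) and 2.53 (97.8%).

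**Figure D4:**
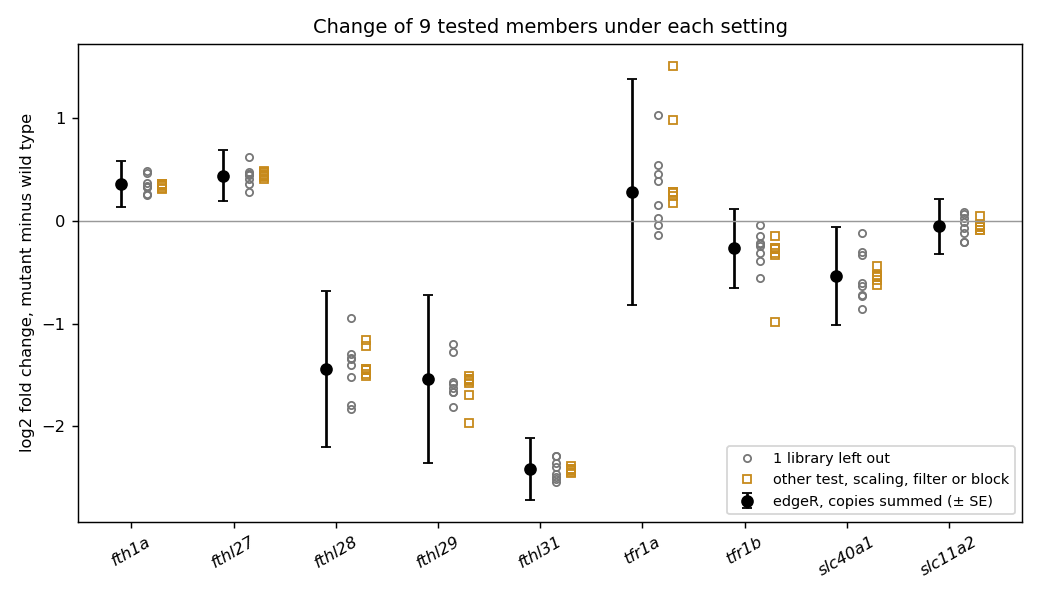
Log2 fold change (cxcr4a mutant minus wild type) of the 9 tested members with copies summed (black, ± SE, n = 4 per group), with 1 library left out (circles) and under other tests, scalings, filters or the replicate block (squares; for rows as deposited, tfr1b is its plain row). fthl31 stays between -2.54 and -2.28 throughout, whereas tfr1a spans both signs.

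The other genes of iron handling were read from 6 lists of 111 symbols, of which 104 matched a symbol in the files and 91 were tested. edgeR called none of the 91 over all symbols, against 0.0481% of all symbols, and 7 had an unadjusted p under 0.05, all higher in mutants. That is 7.69% of the 91, where 8.64% of all tested symbols had one and 5.09% had one and were higher. DESeq2 called 1, hmox2a, where it called 2.47% of all symbols. Groups did not overlap for 5 of the 91 (5.49%), against 6.3% of all tested symbols. A positive log2 fold change was found for 51 of the 91 and for 8426 of all 16631 tested symbols (50.7%). The medians were 0.11 and 0.01.

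Ferritin turnover genes had 4 of 4 positive changes (median 0.46) and 0 called. fth1b, a further heavy-type ferritin gene that is not in the set, was at 6.29, 7.42, 13.3 and 8.17 CPM in mutants and at 2.58, 8.23, 3.92 and 4.75 CPM in wild type (log2 fold change 0.85 ± 0.45, SE; edgeR adjusted p = 0.656). ncoa4, whose product carries ferritin to lysosomes for breakdown, was at 995, 1416, 913 and 537 CPM in mutants and at 497, 654, 399 and 966 CPM in wild type (0.62 ± 0.36; edgeR adjusted p = 0.687). The iron chaperone gene pcbp2 was at 0.30 ± 0.22 and pcbp4 at 0.20 ± 0.89 on the log2 scale.

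Iron and transferrin uptake genes had 10 of 14 positive changes (median 0.22) and 0 called. slc39a14, a metal importer gene, was at 5.81, 4.00, 9.84 and 4.71 CPM in mutants and at 0.948, 4.18, 1.83 and 2.38 CPM in wild type (log2 fold change 1.38 ± 0.56, SE; edgeR adjusted p = 0.530). steap4, a metalloreductase gene, was at 1.03 ± 0.65 on the log2 scale and reached 669.7 CPM in mutant 1. The endolysosomal channel gene mcoln1a was at -0.67 ± 0.51. None of the 14 had groups that did not overlap.

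Iron export, ferroxidase and hepcidin genes had 7 of 11 positive changes (median 0.24) and 0 called. hamp, which encodes hepcidin, the hormone that removes ferroportin from the cell surface, had 309, 78, 43 and 20 counts in mutants 1 to 4. In wild type it had 30 counts in wild type 2 and 0 in the other 3 libraries. Mutant 4, at 0.698 CPM, was below wild type 2, at 1.31 CPM, so the groups overlapped (log2 fold change 4.04 ± 1.71, SE, n = 4 per group; edgeR adjusted p = 0.545). The ferroxidase gene hephl1a was at 355, 327, 134 and 192 CPM in mutants and at 162, 140, 134 and 118 CPM in wild type (0.86 ± 0.31; edgeR adjusted p = 0.481). furinb, a protease gene, was at 0.46 ± 0.31 and neo1a, which encodes a co-receptor for hemojuvelin and guidance cues, at -0.38 ± 0.21.

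Iron sensing and iron-responsive regulators had 11 of 14 positive changes (median 0.16) and 0 called. ireb2, encoding iron regulatory protein 2, was at 125, 149.5, 93.2 and 116 CPM in mutants and at 62.2, 89.5, 81.9 and 96.8 CPM in wild type, where only mutant 3 reached into the wild-type range (log2 fold change 0.55 ± 0.22, SE, n = 4 per group; edgeR adjusted p = 0.530). fbxl5, whose product marks iron regulatory proteins for degradation when iron is plentiful, was at 0.66 ± 0.27 (edgeR adjusted p = 0.533). The hypoxia-inducible factor gene hif1aa was at 2.13 ± 1.03, with 2.55 to 7.24 CPM in mutants and 0 to 1.61 CPM in wild type. It was the 1 of 14 whose groups did not overlap, against 6.3% of all tested symbols. cdc34b, a ubiquitin-conjugating enzyme gene, was at 0.45 ± 0.24.

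Mitochondrial iron and iron-sulphur cluster genes had 6 of 22 positive changes (median -0.13), with 0 called and 0 at an unadjusted p under 0.05. ciao1, of the cytosolic cluster assembly machinery, was lower in each of the mutants, at 31.9, 38.0, 37.7 and 36.1 CPM against 40.9, 43.4, 49.2 and 55.1 CPM (log2 fold change -0.39 ± 0.19, SE, n = 4 per group; edgeR adjusted p = 0.611). ciao1 was the 1 of 22 whose groups did not overlap, against 6.3% of all tested symbols. cisd2 was at -0.76 ± 0.37, lyrm4 at -0.53 ± 0.28 and the glutaredoxin gene glrx5 at -0.37 ± 0.21.

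Haem synthesis, breakdown and transport genes had 13 of 26 positive changes (median 0.00) and 0 called by edgeR. hmox2a, which encodes a haem oxygenase that releases iron from haem, was at 14.1, 33.1, 14.9 and 11.1 CPM in mutants and at 6.27, 5.88, 5.81 and 8.65 CPM in wild type, higher in each of 4 mutants than in any wild type. The log2 difference of 1.46 ± 0.39 did not pass in edgeR (SE, n = 4 per group; adjusted p = 0.296), and it is the gene that DESeq2 called. lrp1aa, of the family of receptors that take up haem bound to haemopexin, was also higher in each mutant than in any wild type (0.81 ± 0.27; edgeR adjusted p = 0.436). Groups did not overlap for 3 of the 26, against 6.3% of all tested symbols. The haem synthesis genes uros and hmbsa were at 0.61 ± 0.28 and -1.10 ± 0.54.

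**Figure D5:**
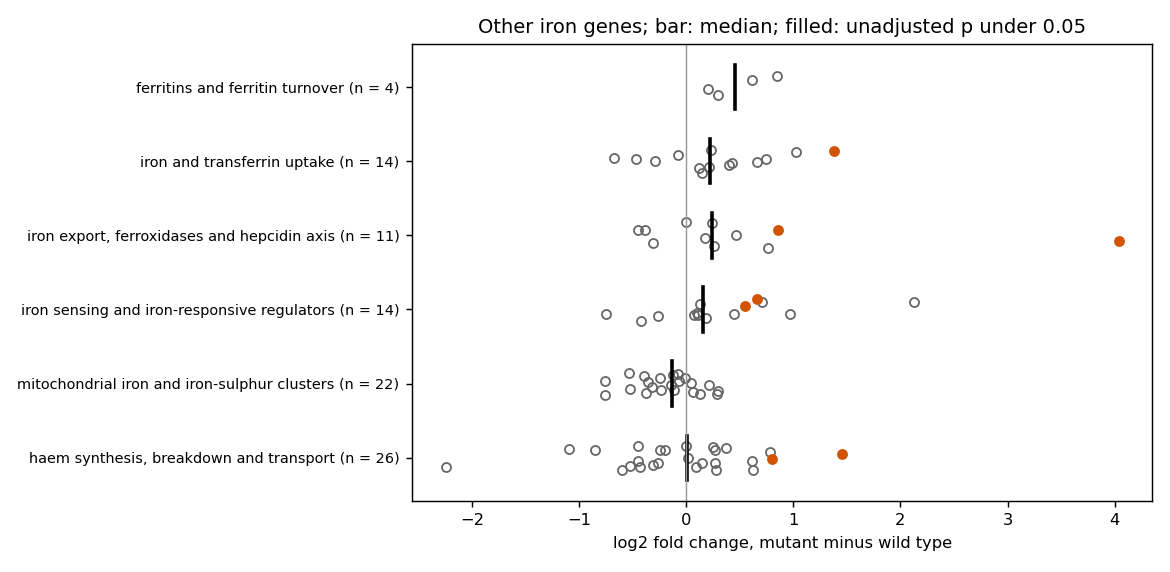
Log2 fold change (cxcr4a mutant minus wild type, edgeR) of 91 tested genes in 6 lists of iron handling, with the median of each list as a bar and genes at an unadjusted p under 0.05 filled. The 7 filled genes, all to the right of 0, are 7.69% of the 91, against 8.64% of all tested symbols, and none was called.

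The genes whose library pattern was closest to that of fthl31 were sought among 8542 other named symbols with a mean log2 CPM of 3 or more. Likeness was the root mean square difference, over the 8 libraries, of log2 CPM centred on each gene's mean. The 5 closest were tmem271 at 0.47, the ribosome assembly gene nop14 at 0.50, nucks1a, which encodes a nuclear DNA-binding protein, at 0.58, sh3bgrl at 0.60 and the pyrimidine catabolism gene dpydb at 0.63. Each was lower in all 4 mutants than in any wild type, since the measure follows the genotype gap of fthl31, and none of the 5 was called (edgeR adjusted p = 0.0719 to 0.309).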

How the data were processed

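Per the labels' protocols, RNA went through SMART-Seq v4 amplification and Nextera XT library preparation, which keep no strand, so reads of overlapping antisense genes cannot be told apart. The deposited values are raw read counts per gene symbol, for which the submitters' processing notes list GRCz11, HTSeq, STAR 2.7.11a and cutadapt 5.2 without settings or annotation release. Copies of a symbol were summed over the whole table before the fit. The 2-sided quasi-likelihood F-test of edgeR 4.0.16 (R 4.3.3) was run on all 8 libraries after filterByExpr and TMM, with genotype as sole covariate. Standard errors come from the F statistic. Library measures were compared by an exact permutation test over 70 assignments with Benjamini-Hochberg adjustment.

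Alternatives were DESeq2 1.42.0, limma 3.58.1 voom with quality weights, other scalings and low-count filters, rows as deposited, no mitochondrial genes, a replicate block, and each library left out in turn. The edgeR step was also run on counts simulated with the dispersions that edgeR estimated from these libraries. That run cannot tell whether the model holds for these data. Members and lists were chosen with earlier results of these data known. Text names all members, from each iron list the called genes and up to 4 with the smallest p (1 is not reported here), the 5 genes most like fthl31 (symbols of clones left out), and cluster neighbours and marker genes chosen after their values were seen. List symbols with no row were looked up by RefSeq synonym, and 104 of 111 iron and 114 of 120 marker symbols matched. No pair of libraries within a group agreed within sampling noise (chi-square per degree of freedom 80.2 to 475). Gene order came from a RefSeq table of GRCz12tu, and sequences were not used here.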

Additional observations from a re-analysis of the deposited data

Results flagged for a closer look

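In groups of 4 libraries, a single library stood apart from the other 3 in 16 of 172 checks, where chance flags about 5% of normal samples; CPM values are skewed, so no excess can be read from the number. Among the members, fthl30 was at 0.392 CPM in wild type 2, against 0 to 0.0527 in the other wild types, and so also took 0.0425% of ferritin reads there; both rest on 9 counts. Among iron genes, steap4 was at 669.7 CPM in mutant 1 (132.6 to 203.5 in the others), hamp at 1.31 CPM in wild type 2 (0 in the others) and furinb at 48.0 CPM in wild type 1 (23.4 to 26.3). lyrm4 was at 27.9 CPM in wild type 4 (17.5 to 18.6) and uros at 22.8 CPM there (15.4 to 16.03). hmox2a was at 33.1 CPM in mutant 2 (11.1 to 14.9) and at 8.65 CPM in wild type 4 (5.81 to 6.27). sh3bgrl was at 7.61 CPM in mutant 4 (29.6 to 33.3). Among markers, the smooth muscle actin gene acta2 was at 6182 CPM in mutant 2 (17.2 to 128.7 in the other mutants). It was part of the summed mural markers, which were at 11060 CPM there (1032 to 2086). Wild types 3 and 4 were also high in acta2, at 2188 and 3300 CPM. mmp9 was at 184.0 CPM in mutant 1 (4.08 to 25.8) and pdgfrb at 712 CPM in wild type 1 (350.6 to 407.7). foxd3 was at 0.489 CPM in mutant 4 (0 in the other mutants, and 2.71 in wild type 4). Summed fibroblast markers were at 24330 CPM in wild type 1 (17920 to 18770).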

How the results depend on the processing

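The count of 8 called symbols became 468 with DESeq2, 63 with rows as deposited, 2 with limma voom and 0 with the replicate block (edgeR; 1320 at an unadjusted p under 0.05), and 0 to 9 with 1 library left out (edgeR; 1063 at an unadjusted p under 0.05 without mutant 1, where it was 0). The 1 called member became 0 with limma voom, library size only and the replicate block, and 0 to 0 with 1 library left out. Under these, the fthl31 log2 fold change was -2.39, -2.44 and -2.42 (block adjusted p = 0.326). Correlations of deviations from the group mean ran from -0.08 to 0.08 for mutants and wild types of the same replicate number, and from -0.12 to 0.20 for other numbers. Of the 4 mutants, 2 had their best match in the wild type of their own number. Whether the numbers pair the libraries cannot be told from these values. Calls in the iron lists went from 0 to 1 with DESeq2. With 1 library left out, tfr1a ran from -0.14 to 1.03 (1.505 with limma voom, 0.97 with the replicate block) and slc11a2 from -0.212 to 0.088 (0.048 with limma voom); the cause was not tested. The 8 members tested and not called stayed uncalled in each alternative that tested them. The stricter low-count filter left fthl29 out. The differences of library measures, mutant minus wild type, that turned sign with 1 library left out ran from -2873000 to 89280 for total counts, -285.2 to 378.6 for detected symbols, -1.98 to 0.467 for mitochondrial mRNA percent and -7.37 to 0.319 for the 10 most abundant symbols (percent). For summed marker CPM they ran from -334.4 to 817 (epicardial), -1369 to 291.7 (macrophage), -4.73 to 64.0 (neutrophil), -4.46 to 0.725 (lymphocyte), -3345 to 1775 (erythrocyte), -1609 to 1733 (mural), -456.7 to 3593 (fibroblast) and -1.11 to 5.14 (Schwann). None passed the test in any of these. Low counts limit fthl29 and fthl30.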
